A study of Mus musculus with 12 samples.

Results

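Nuclear-encoded genes of the mitochondrial respiratory chain and the ATP synthase were followed in neurospheres, free-floating spheres of neural progenitors, that had been grown from E11.5 ventral midbrain of the mouse strain CD-1. They were taken by symbol, as names starting with Nduf, Uqcr, Sdha to Sdhd, Cox4 to Cox8 or Atp5, and numbered 92 of the 23965 gene rows counted. Grouped by symbol, 38 were placed in complex I, 4 in complex II, 8 in complex III, 18 in complex IV and 15 in complex V. A further 6 were placed with the assembly factors, and 3 were set apart as others. The 3 others are Cox4nb, known today as Emc8, a subunit of an endoplasmic reticulum complex that the name alone brings in, and Atp5s and Atp5sl, known today as Dmac2l and Dmac2. Ndufa4 is kept with complex I by its name, although its protein is now assigned to complex IV.

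Complexes I to IV pass electrons from NADH and succinate to oxygen. Complexes I, III and IV pump protons across the inner mitochondrial membrane on the way, and complex V uses the returning protons to make ATP. Except for complex II, each complex mixes nuclear subunits with a few made from the mitochondrial genome, and dedicated assembly factors put them together. Neural progenitors rely much on glycolysis, and their respiratory chain expands as they turn into neurons.

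All spheres were expanded for 3 days and then kept for 5 h in N2 medium with one of 4 additions. These were CT99021 (CHIR99021, an inhibitor of the kinase GSK3 beta, which stabilises beta-catenin), GW3965 (an agonist of the liver X receptor, a nuclear receptor for oxysterols), GW3965+CT99021, or the solvent DMSO as control. Each group had 3 RNA sequencing libraries numbered 1 to 3, and the labels do not say that these came from separate cultures, so a p-value here measures spread among libraries that could be technical in origin.

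Gene counts per library ran from 9646424 to 21314093, and the 92 genes held 0.493% to 0.746% of them. Libraries of the same number resembled each other across groups. The 4 libraries numbered 3 stood apart from the others, with higher erythroid and mesenchymal and lower neural markers. Relative to the mean of libraries 1 and 2 of a group, their median log2 difference was 1.56 to 2.13 for erythroid, 1.26 to 2.06 for mesenchymal and -0.59 to -0.47 for neural progenitor markers. A row for the small nucleolar RNA U14 had 0 counts in these 4 and in GW3965+CT99021 replicate 2, against 10 to 27 in the other 7. All 15 neural progenitor markers examined were detected, with summed levels of 3443 to 4585 CPM (counts scaled to the library total) in CT99021, 4028 to 5437 in GW3965, 3555 to 4537 in GW3965+CT99021 and 3722 to 5332 in controls. The 10 mesenchymal markers, none at 0, summed to 419 to 4129 CPM in CT99021, 315 to 2660 in GW3965, 1046 to 3407 in GW3965+CT99021 and 301 to 3082 in controls. Libraries 1 and 2 differed from each other too. Their mesenchymal sums were 1797 and 419 CPM in CT99021, 1375 and 315 in GW3965, 2489 and 1046 in GW3965+CT99021 and 1601 and 301 in controls. Because of the shared numbers, fold changes are from a fit in which the replicate number is a block, and "rose" and "fell" mean a Benjamini-Hochberg adjusted p under 0.05 in edgeR's quasi-likelihood test of that fit. A p-value of the blocked fit measures the spread left among libraries after differences between numbers are removed. Calls of the fit without the block are given beside each comparison.

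The genes were expressed at very unequal levels, and the catalytic core of ATP synthase led. Per kilobase of transcript, Atp5b, the catalytic beta subunit, averaged 457 ± 80.2 CPM in controls (SD, n = 3). Atp5a1, the alpha subunit, followed at 298 ± 35.5 CPM per kilobase, a gap wider than the sum of both SDs. Atp5g3, which encodes the proton-carrying c subunit, had 256 ± 35.4 CPM per kilobase and Cox4i1, a nuclear subunit of cytochrome c oxidase, 222 ± 20.2. Each of these last 2 differed from the gene above it by less than the sum of the SDs. These SDs include differences between libraries that the genes share, so they do not judge the order within a library. Median control levels over the members that passed the count filter were 42.8 CPM per kilobase for complex I, 64.4 for complex II, 64.5 for complex III, 81.7 for complex IV and 96.6 for complex V, and 8.58 for the assembly factors. Among the catalytic parts, the complex I core subunits Ndufs1 and Ndufs3 had 33.3 ± 0.49 and 35.2 ± 1.83 CPM per kilobase, the succinate dehydrogenase flavoprotein Sdha 66.8 ± 5.31 and its iron-sulfur partner Sdhb 71.0 ± 13.9. Cox6c, an accessory subunit of complex IV, had 72.6 ± 4.44. The members of a complex were unequal too, from 41.1 for Atp5g1 to 457 for Atp5b in complex V and from 9.72 for Ndufa11 to 136 for Ndufa4 in complex I.

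Isoform pairs were used one-sidedly in these embryonic cells. Of the c subunit genes, which encode the same mature protein, Atp5g3 at 256 CPM per kilobase in controls stood above Atp5g2 at 123 ± 14.6 and Atp5g1 at 41.1 ± 10.96. The muscle and heart isoforms of cytochrome c oxidase were near 0. Cox7a1 had 0.64 ± 0.09 CPM per kilobase against 64.7 ± 5.33 for Cox7a2, Cox6a2 had 0.062 ± 0.061 against 166 ± 34.3 for Cox6a1, and Cox8b had 0.057 ± 0.099 against 139 ± 15.3 for Cox8a. The lung isoform Cox4i2 had 0.18 ± 0.17 CPM per kilobase, and Ndufa4l2, the paralogue of Ndufa4, had 0.28 ± 0.06. Cox6b2, known as the testis isoform, was the exception, at 16.3 ± 2.79 CPM per kilobase beside 127 ± 10.7 for Cox6b1. In all, 85 of the 92 genes passed the filter on low counts. Cox7a1, Ndufa4l2, Cox4i2, Cox7b2, Cox6a2, Cox8b and Cox8c did not, and Cox8c had 0 counts in all 12 libraries. Cox6a2 had 13 of its 41 counts in GW3965 replicate 3 and 15 in GW3965+CT99021 replicate 3.

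**Figure D1:**
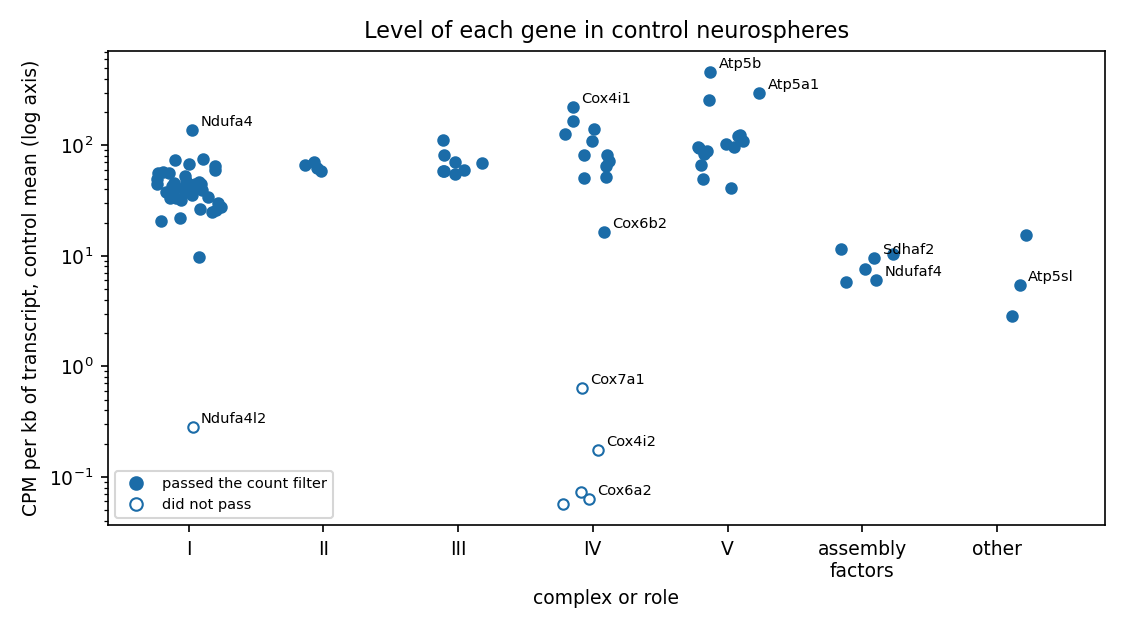
Level of each gene in control neurospheres, as CPM per kilobase of transcript (mean of 3 libraries, log axis), by complex or role. Atp5b leads at 457, the assembly factors lie at 5.79 to 11.6, and open points are genes that did not pass the filter on low counts (Cox8c, at 0, is not drawn).

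The first question was what CT99021 alone did within 5 h. The 76 subunit genes tested moved little, all within 0.5 log2 units of control, and 5 members passed the test. The assembly factor genes Ndufaf4 and Sdhaf2 rose, Ndufab1 and Atp5d rose slightly, and Atp5sl fell. That is 4 of 85 higher and 1 lower, with 8.23% of all genes tested called higher, 7.59% called lower and 15.8% called in either direction. Without the block 0 of 85 passed in edgeR, where 0.0577% of all genes did. There 3 of 85 had an unadjusted p under 0.05, beside 1514 of all 15608 genes tested. For the other comparisons such counts are given without that share, so they are not read as a result about the members. DESeq2 without the block called Atp5sl. The blocked count of 5 was 1 without control replicate 2, 2 without control replicate 1 or CT99021 replicate 2, and 3 without CT99021 replicate 3 or GW3965 replicate 1 or 2. It was 10 when number 3 was left out. The share of all genes called is not given for these settings, here or below. Such changes in count are therefore not read as a result about the members.

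Ndufaf4, an assembly factor of complex I, had 37.4, 39.2 and 22.1 CPM in CT99021 libraries 1 to 3, against 24.8, 26.3 and 15.9 CPM in controls. The CT99021 library was the higher one within every number, although the low CT99021 library 3 lay below controls 1 and 2. Its log2 fold change was 0.55 ± 0.10 (SE), a 1.46-fold increase (edgeR adjusted p = 0.00657), kept under all 19 alternatives with the block. Sdhaf2, which helps attach the flavin cofactor to the complex II subunit Sdha, had 39.7, 40.8 and 36.3 CPM in CT99021 and 30.9, 32.2 and 26.6 CPM in controls. The groups did not overlap, which held for 5 members higher and 4 lower of 85, and for 14.8% of all genes tested. Its log2 fold change was 0.39 ± 0.09 (edgeR adjusted p = 0.0218), and it missed the threshold without any 1 of controls 1, 2 and 3 and CT99021 2 and 3, with an adjusted p of up to 0.107 over all alternatives with the block.

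Atp5sl is named after the ATP synthase but encodes a factor for the membrane arm of complex I. In the grouping by symbol it stands with the others, not with the assembly factors. It had 8.54, 8.68 and 9.11 CPM in CT99021 and 13.8, 13.5 and 13.5 CPM in controls. Every CT99021 library lay below every control, and the 3 values within each group were close together. It fell by 0.62 ± 0.12 on the log2 scale (edgeR adjusted p = 0.00843), with an adjusted p of 0.0504 when control 2 was left out.

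The stretches upstream of these 3 genes are shown because these genes were called in more than 1 comparison, with Atp5b as the most abundant member. Each is the 250 bases before the RefSeq start on GRCm38.p6, a newer build than the mm9 of the count table, read along the gene's strand. Capitals mark letters searched for on both strands. These were GCATGCGC for nuclear respiratory factor 1 (NRF1), CCGGAAG for ETS factors such as GABP, and AAGATGGC for YY1. The others were the E-box, spelled CACGTG and read by many basic helix-loop-helix factors, the letters CTTTGAT read by the TCF and LEF partners of beta-catenin, and the DR4 repeat bound by the liver X receptor.
Ndufaf4 (chr4:24897833-24898082, plus strand, 2 overlapping NRF1 matches, 1 per strand): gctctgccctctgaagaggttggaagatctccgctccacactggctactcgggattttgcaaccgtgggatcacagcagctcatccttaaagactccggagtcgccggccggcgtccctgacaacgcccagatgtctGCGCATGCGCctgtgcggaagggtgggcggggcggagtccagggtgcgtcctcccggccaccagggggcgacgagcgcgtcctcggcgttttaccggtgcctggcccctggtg
Sdhaf2 (chr19:10525210-10525459, minus strand, 1 ETS match): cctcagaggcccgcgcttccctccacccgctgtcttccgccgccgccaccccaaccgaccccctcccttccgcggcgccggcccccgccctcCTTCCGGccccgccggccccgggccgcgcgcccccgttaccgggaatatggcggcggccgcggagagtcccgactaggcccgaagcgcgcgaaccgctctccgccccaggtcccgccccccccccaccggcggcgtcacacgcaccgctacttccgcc
Atp5sl (chr7:25619164-25619413, plus strand, RefSeq Dmac2, 1 E-box): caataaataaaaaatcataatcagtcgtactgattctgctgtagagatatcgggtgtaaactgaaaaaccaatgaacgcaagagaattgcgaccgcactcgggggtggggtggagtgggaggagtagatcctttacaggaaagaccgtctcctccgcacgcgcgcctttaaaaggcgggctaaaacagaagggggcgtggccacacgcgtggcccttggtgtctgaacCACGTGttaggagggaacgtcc
Atp5b (chr10:128083057-128083306, plus strand, no match): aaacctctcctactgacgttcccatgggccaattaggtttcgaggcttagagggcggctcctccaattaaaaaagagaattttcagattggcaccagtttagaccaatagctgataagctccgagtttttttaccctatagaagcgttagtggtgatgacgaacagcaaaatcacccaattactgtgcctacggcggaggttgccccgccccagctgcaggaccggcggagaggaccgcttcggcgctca

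All 92 genes matched a RefSeq gene and 76 had such a window, and a gene with several windows counts once. NRF1 letters stood in 9 of the 76 (11.8%), against 692 of 27025 genes in all (2.56%), and ETS letters in 14 (18.4%) against 7.83%. The YY1 letters were found in 2 of the 76 (2.63%) against 1.83% of all genes and the E-box in 7 (9.21%) against 6.86%. The TCF and LEF letters were in 1 of the 76 (1.32%) against 3.72%, and the DR4 repeat in 0 of the 76 against 4 of all genes. The 27025 are all genes with a window, whether expressed in these cells or not, so the 2 sets may differ in more than the respiratory chain. A match describes these letters in this window and no more.

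**Figure D2:**
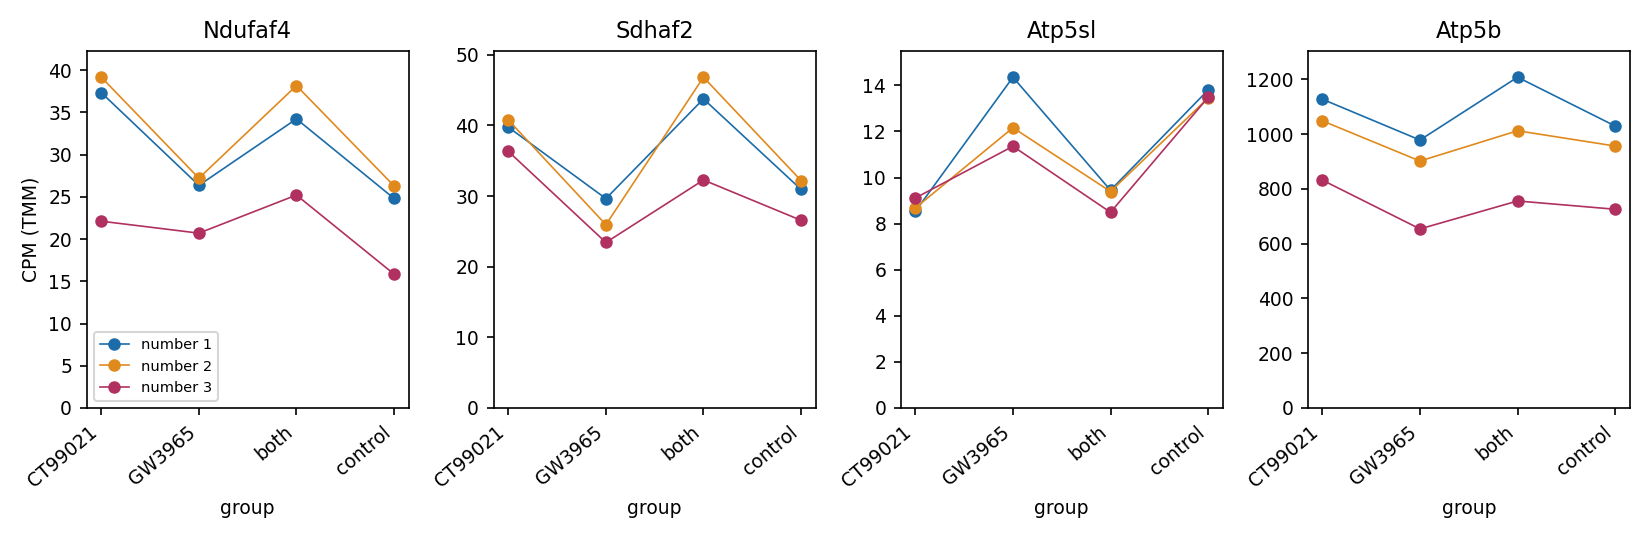
CPM of Ndufaf4, Sdhaf2, Atp5sl and Atp5b in each of the 12 libraries, with lines joining libraries of the same replicate number ("both" is GW3965+CT99021). Atp5sl is at 8.49 to 9.45 CPM in the 6 libraries with CT99021 and at 11.4 to 14.4 CPM in the 6 without it, and for the other 3 genes the library numbered 3 is the lowest of each group.

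Subunits that rose with CT99021 did so by small amounts. Ndufab1, the mitochondrial acyl carrier protein that is also a complex I subunit, had 28.8, 30.0 and 25.9 CPM in CT99021 and 25.01, 22.2 and 22.1 CPM in controls. No library of one group lay within the other. It rose by 0.29 ± 0.08 on the log2 scale (edgeR adjusted p = 0.0443). Only 5 of 19 alternatives with the block kept this call. Atp5d, the delta subunit in the rotor stalk of ATP synthase, had 132, 125 and 91.8 CPM in CT99021 and 115, 99.5 and 81.2 CPM in controls. Groups overlapped, with the CT99021 library higher within each number. It rose by 0.24 ± 0.06 (edgeR adjusted p = 0.0344), with 11 of 19 alternatives keeping the call. The locus overlaps the gene Cbarp, so reads of both may be mixed.

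The remaining subunits did not pass. Complex IV leaned one way without a call, with all 12 genes tested above 0 and a median log2 fold change of 0.14. Among them Cox5b had 0.25 ± 0.09, Cox5a 0.16 ± 0.08 and Cox4i1 0.09 ± 0.06. In complex III, 7 of 8 were above 0; Uqcrfs1, the Rieske iron-sulfur protein, had 0.22 ± 0.07 (edgeR adjusted p = 0.0649) and Uqcrc1, a core subunit, 0.11 ± 0.06. In complex V 14 of 15 were above 0, Atp5b at 0.15 ± 0.06, while complex I was spread around 0, with 22 of 37 above it and a median of 0.01. Ndufv1, which binds NADH, had a log2 fold change of -0.16 ± 0.08. Over the 85 genes the median was 0.06, against 0.02 over all 15608 genes tested.

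Assembly factors did not move as one. Ndufaf1 had a log2 fold change of 0.27 ± 0.13 and Ndufaf2 of 0.24 ± 0.13, neither past the test. Ndufaf3, another complex I assembly factor, pointed the other way, with 3.86, 3.58 and 6.08 CPM in CT99021 and 7.22, 5.83 and 7.21 CPM in controls. It was lower within each number, but CT99021 library 3 lay above control 2. Its log2 fold change of -0.59 ± 0.23 did not pass (edgeR adjusted p = 0.109), although it did without CT99021 replicate 3, and neither did that of Atp5s, at -0.49 ± 0.19 (edgeR adjusted p = 0.115). Neural progenitor markers, of which 4 of 15 fell and none rose, had a median of -0.19 in the same comparison. Of 13 pan-neuronal markers 2 rose and 3 fell, with a median of -0.18, and mesenchymal markers, of which 2 of 10 rose, had a median of 0.47. The part of these shifts in the members' values was not tested. In bulk RNA, fewer cells of a type and less RNA per cell cannot be told apart.

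**Figure D3:**
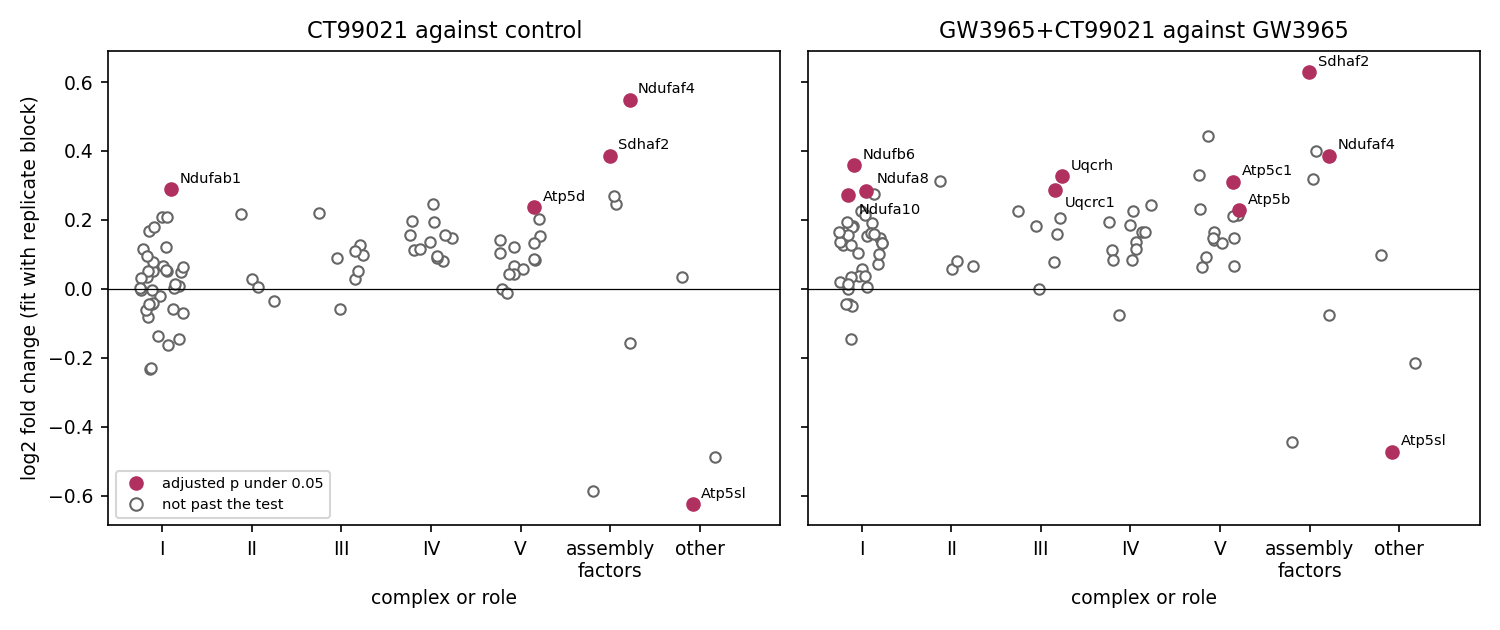
Log2 fold change of each of the 85 genes tested, by complex or role, for CT99021 against control (left) and GW3965+CT99021 against GW3965 (right), in the blocked edgeR fit. Filled points passed the test: 5 genes on the left and 10 on the right, with Atp5sl the one that fell in both.

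The same inhibitor was also compared in the presence of GW3965, using 6 other libraries. GW3965+CT99021 against GW3965 gave more calls: 9 of 85 rose and 1 fell, where 11.8% of all genes tested were called higher, 8.81% lower and 20.6% either way. The share of members called, 11.8%, lay below that of all genes, as did the 5.88% in CT99021 against control. The 9 were Sdhaf2 and Ndufaf4, the complex I subunits Ndufb6, Ndufa8 and Ndufa10, the complex III subunits Uqcrh and Uqcrc1, and the ATP synthase subunits Atp5c1 and Atp5b. Without the block 0 passed in edgeR (0.0769% of all genes), 6 had an unadjusted p under 0.05, and DESeq2 called Sdhaf2. The blocked count of 10 was 2 without GW3965+CT99021 replicate 2 or GW3965 replicate 1, and 3 without GW3965+CT99021 replicate 1 or GW3965 replicate 2. It was 18 when number 3 was left out.

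Sdhaf2 had 43.7, 46.8 and 32.3 CPM in GW3965+CT99021 libraries 1 to 3 and 29.6, 25.9 and 23.4 CPM in GW3965 libraries. All 3 combined libraries were above all 3 of GW3965 alone. Groups were this separate for 4 members higher and 1 lower of 85, beside 15.4% of all genes tested. The log2 fold change of Sdhaf2 was 0.63 ± 0.09, or 1.55-fold (edgeR adjusted p = 0.00228), kept under all 19 alternatives with the block. Ndufaf4 had 34.2, 38.2 and 25.2 CPM in GW3965+CT99021 and 26.4, 27.2 and 20.7 CPM in GW3965. Libraries overlapped, since combined library 3 lay below GW3965 libraries 1 and 2. It rose by 0.39 ± 0.10 on the log2 scale (edgeR adjusted p = 0.0206). Of 19 alternatives 14 kept the call, and it was lost, among others, without GW3965+CT99021 replicate 2 or 3 or GW3965 replicate 1 or 2.

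Atp5sl had 9.45, 9.39 and 8.49 CPM in GW3965+CT99021 and 14.4, 12.2 and 11.4 CPM in GW3965, again with no overlap. It fell by 0.47 ± 0.12 on the log2 scale (edgeR adjusted p = 0.0201). Of 19 alternatives 15 kept the call, the exceptions being those without GW3965+CT99021 replicate 1 or 3 or GW3965 replicate 1 or 2. Ndufaf3 had a log2 fold change of -0.44 ± 0.23 and Atp5s of -0.22 ± 0.19, both short of the threshold, which Ndufaf3 passed without GW3965 replicate 3. Ndufaf2 had 0.40 ± 0.13 (edgeR adjusted p = 0.0579) and Ndufaf1 0.32 ± 0.13, also short of it.

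Of the subunits, Uqcrc1 gave the smallest p. It had 180, 160 and 124 CPM in GW3965+CT99021 and 149, 131 and 100 CPM in GW3965, so the combined library was higher within each number while the groups overlapped. Its log2 fold change was 0.29 ± 0.06 (edgeR adjusted p = 0.0110), with 17 of 19 alternatives past the test and 0.0503 without GW3965+CT99021 replicate 2. Atp5c1, the gamma subunit that turns inside the catalytic head, had 153, 146 and 134 CPM in GW3965+CT99021 and 120, 128 and 101 CPM in GW3965, with no overlap. It rose by 0.31 ± 0.08 (edgeR adjusted p = 0.0203), a call kept by 14 of 19 alternatives.

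Atp5b had 1208, 1013 and 756 CPM in GW3965+CT99021 and 979, 902 and 654 CPM in GW3965, a log2 fold change of 0.23 ± 0.06 (edgeR adjusted p = 0.0278). Within each number the combined library was the higher, and across numbers the groups overlapped widely. Ndufa10 rose by 0.27 ± 0.06, Uqcrh, the hinge protein of complex III, by 0.33 ± 0.09, Ndufb6 by 0.36 ± 0.11 and Ndufa8 by 0.28 ± 0.09 (edgeR adjusted p = 0.0142, 0.0347, 0.0387 and 0.0443 in that order). Of 19 alternatives with the block Ndufa10 passed under 14, Uqcrh under 11, Atp5b under 10, Ndufb6 under 6 and Ndufa8 under 4, and the adjusted p of Atp5b reached 0.111. The median over the 85 genes was 0.15 and 75 of them were above 0, against a median of 0.01 over all genes tested. Within numbers 1, 2 and 3 the members' median log2 ratio was 0.15, 0.12 and 0.16. Of 10 mesenchymal markers 5 rose, with a median of 1.07, and 8 of 15 neural progenitor markers fell, with a median of -0.34. Of 13 pan-neuronal markers 1 rose and 2 fell, with a median of -0.23. The part of these markers in the members' values was not tested.

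Set side by side, the CT99021 comparisons without and with GW3965 share no library. Ndufaf4, Sdhaf2 and Atp5sl were called in both with the same sign, 3.53% of the 85 genes, against 12.1% of all genes tested. The sign was the same for 71 of 85 genes (83.5%), of which 62 were higher in both and 9 lower in both, and for 78.5% of all genes tested. Across the 85 genes the fold changes had a Pearson r of 0.82, beside 0.59 over the 76 subunits and 0.67 over all genes. Genes are not independent replicates, and libraries of the same number occur in both comparisons, so these are descriptions.

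**Figure D4:**
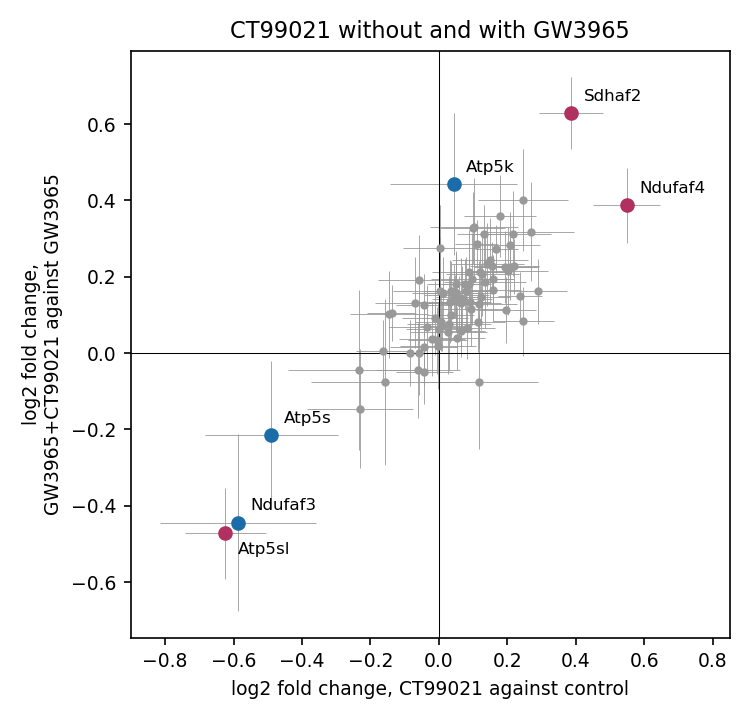
Log2 fold change of the 85 genes for CT99021 against control (horizontal) and GW3965+CT99021 against GW3965 (vertical), with standard errors, in the blocked edgeR fit. Red points (Ndufaf4, Sdhaf2, Atp5sl) passed the test in both, blue points (Ndufaf3, Atp5s, Atp5k) in neither, and the other genes are grey.

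The combination set against control gave fewer calls than against GW3965. Ndufaf4 and Sdhaf2 rose and Atp5sl fell, or 2 of 85 higher and 1 lower, beside 11.3% of all genes higher, 8.95% lower and 20.3% either way. Their log2 fold changes were 0.55 ± 0.10 for Ndufaf4, 0.45 ± 0.09 for Sdhaf2 and -0.57 ± 0.12 for Atp5sl (edgeR adjusted p = 0.00465, 0.00948 and 0.00894). Combined libraries had 34.2, 38.2 and 25.2 CPM of Ndufaf4, against 24.8, 26.3 and 15.9 CPM in controls, overlapping but higher within each number; Sdhaf2 and Atp5sl did not overlap between these groups. Sdhaf2 missed the threshold without control replicate 1 or GW3965+CT99021 replicate 2. The count of 3 was 5 without CT99021 replicate 3 or GW3965 replicate 3, and 8 when number 3 was left out. Without the block 0 of 85 passed in edgeR (0.115% of all genes did), 2 had an unadjusted p under 0.05, and DESeq2 called Atp5sl. Without overlap in this comparison were 2 members higher and 2 lower of 85, beside 17.3% of all genes tested. Ndufaf3 had 4.94, 2.80 and 5.26 CPM in GW3965+CT99021 and 7.22, 5.83 and 7.21 CPM in controls, also with no overlap. Its log2 fold change of -0.66 ± 0.23 with the block was short of the threshold (edgeR adjusted p = 0.0661), and it passed without CT99021 replicate 3, GW3965 replicate 3 or all libraries numbered 3.

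In the same comparison 7 of 15 neural progenitor markers fell and 1 rose (median -0.34), and of 13 pan-neuronal markers 3 fell and 1 rose (median -0.20). Mesenchymal markers rose in 5 of 10 (median 0.88) and erythroid markers fell in 2 of 9 (median -0.43). Among stress genes, for amino acid shortage and the endoplasmic reticulum, 1 of 12 rose, and their median was 0.82. These 12 genes summed to 1587, 1484 and 3233 CPM in GW3965+CT99021 libraries 1 to 3, against 1168 to 1304 CPM in controls, so library 3 was far the highest. What these shifts contribute to the members' values was not tested.

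GW3965 alone called no member. Against control, 0 of 85 genes passed in edgeR with the block (0.0192% of all genes did) and 0 without it (0.0% of all genes); with the block 6 had an unadjusted p under 0.05, without it 0, and DESeq2 called 0 in both forms. The smallest p belonged to Uqcrc1 at a log2 fold change of -0.19 ± 0.06, Ndufv1 at -0.22 ± 0.08 and Ndufa7, an accessory complex I subunit, at -0.20 ± 0.08 (edgeR adjusted p = 0.959 each). Uqcrc1 had 149, 131 and 100 CPM in GW3965 libraries and 161, 143 and 127 CPM in controls, lower within each number and overlapping between groups. Without the block the smallest p was that of Ndufa11, at -0.28 ± 0.15, followed by Uqcrh at -0.21 ± 0.13 and Atp5j2 at -0.20 ± 0.14.

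Although none passed, 82 of the 85 genes lay below 0, with a median of -0.12 against -0.00 over all genes. That lean was widest in the libraries numbered 3. Within number 1 the members' median log2 ratio (GW3965 over control) was -0.05, within number 2 also -0.05, and within number 3 it was -0.26, where 5 of 85 genes were above 0. In number 3 the median of 12 amino acid and endoplasmic reticulum stress genes was 1.78, against -0.01 and 0.02 in numbers 1 and 2, and whether the 2 shifts are connected was not tested. These 12 genes summed to 1158 to 2875 CPM in GW3965 libraries, with library 3 the highest, against 1168 to 1304 CPM in controls. Without the 4 libraries numbered 3 the members' median was -0.04, still with 0 calls.

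The libraries numbered 3 were also low for these genes within their own groups. Against the mean of libraries 1 and 2, their median log2 difference over the 85 genes was -0.18 in CT99021, -0.42 in GW3965, -0.44 in GW3965+CT99021 and -0.19 in controls. Over all genes tested the same value lay between -0.02 and 0.01. Other lists were low in these libraries too, with medians over the 4 groups of -0.29 to -0.23 for cytosolic ribosomal proteins, -0.40 to -0.24 for mitochondrial ribosomal proteins and -0.40 to -0.19 for tricarboxylic acid cycle genes. In CT99021 and in controls these 3 lists lay as low as the members or lower. The members' summed level was 7187, 7077 and 6084 CPM in CT99021 libraries 1 to 3, 6642, 6373 and 4784 CPM in GW3965, 7622, 6934 and 5430 CPM in GW3965+CT99021 and 6902, 6631 and 5651 CPM in controls. Library 3 was the lowest of each group, and the 4 groups overlapped.

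**Figure D5:**
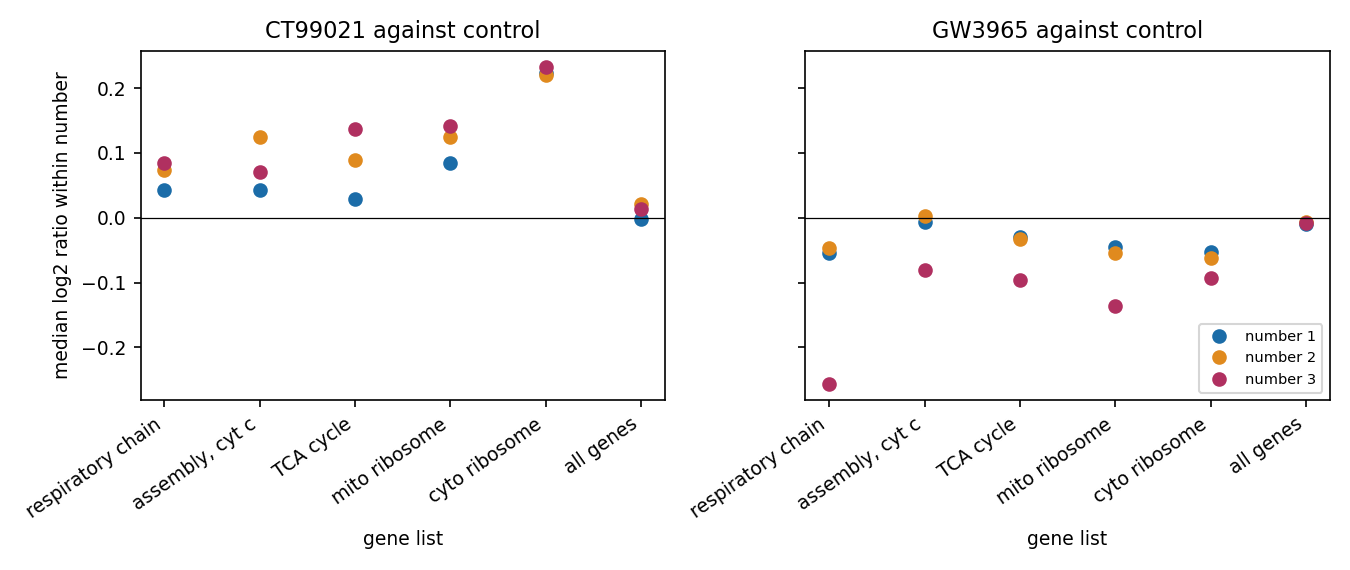
Median log2 ratio within each replicate number for CT99021 against control (left) and GW3965 against control (right), for the respiratory chain genes, 4 other lists and all genes tested. In GW3965 against control the respiratory chain genes sit at -0.05 in numbers 1 and 2 and at -0.26 in number 3.

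Adding GW3965 to CT99021 called no member either. In GW3965+CT99021 against CT99021, 0 of 85 passed in edgeR with the block (0.0192% of all genes) and without it (0.0%). With the block 1 had an unadjusted p under 0.05 and without it 0, and DESeq2 called 0 in both forms. The lowest p was that of Atp5d, at a log2 fold change of -0.17 ± 0.06, followed by Cox6b2 at -0.35 ± 0.18 and Cox5b at -0.18 ± 0.09. Cox6b2 had 9.87, 14.7 and 5.77 CPM in GW3965+CT99021 and 11.7, 15.6 and 10.3 CPM in CT99021, so libraries of both groups interleaved and library 2 was the highest of each. Without the block, the lowest p were those of Atp5k at 0.28 ± 0.20, Ndufa6 at 0.11 ± 0.12 and Cox6b2 at -0.31 ± 0.34. The members' median within numbers 1, 2 and 3 was 0.10, -0.02 and -0.18, with no common direction. The GW3965 comparisons with and without CT99021 share no library. In both, 62 of the 85 log2 fold changes were below 0 and 2 above 0 (the same sign in 75.3%, against 58.5% of all genes), and across the 85 genes they had a Pearson r of 0.10.

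Whether the response to CT99021 differed in the presence of GW3965 was tested by the interaction of the compounds. No member passed in edgeR with or without the block (0.0% of all genes in either). With the block 1 had an unadjusted p under 0.05 and without it 0, and DESeq2 called 0 in both forms. The lowest p with the block were those of Ndufa2 at a log2 interaction of 0.24 ± 0.10, Uqcrc1 at 0.18 ± 0.09 and Sdhaf2 at 0.24 ± 0.13 (edgeR adjusted p = 0.999 each). Without the block they were those of Atp5k at 0.42 ± 0.29, Uqcrh at 0.23 ± 0.19 and Atp5c1 at 0.18 ± 0.15. The larger number of members called with GW3965 present than without it is therefore not shown to be a difference in response. Atp5k, a small membrane subunit of ATP synthase, had 20.4, 32.3 and 19.8 CPM in GW3965+CT99021 and 18.4, 18.0 and 23.4 CPM in CT99021, and GW3965+CT99021 replicate 2 alone was high.

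Other mitochondrial genes gave a setting for these values. In CT99021 against control, 5 of 17 tricarboxylic acid cycle genes rose and 1 fell. Dlat of pyruvate dehydrogenase rose by 0.37 ± 0.06, and of the isocitrate dehydrogenase subunits Idh3a rose by 0.32 ± 0.07 and Idh3b by 0.26 ± 0.05, while Idh3g fell by 0.32 ± 0.07. Among 28 further assembly factors and cytochrome c genes 1 rose, Lrpprc, which stabilises mitochondrial messenger RNA, by 0.45 ± 0.07. Mitochondrial ribosomal proteins rose in 5 and fell in 1 of 76, with a median of 0.11. The shares called either way were 35.3% of the cycle genes, 3.57% of the 28 and 7.89% of the mitochondrial ribosomal proteins. Over all genes tested the share was 15.8%, so the last 2 lists lay below it.

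The lists gave larger counts in GW3965+CT99021 against GW3965. There 6 of 17 cycle genes rose and Idh3g fell, Lrpprc and Acad9 rose among the 28, and 21 of 76 mitochondrial ribosomal proteins rose. Of all genes tested, 11.8% were called higher and 8.81% lower in that comparison. Cytosolic ribosomal proteins had the highest share of all lists examined, with 51 of 81 rising in CT99021 against control (median 0.23) and 73 of 81 in GW3965+CT99021 against GW3965 (median 0.30). Without the block 0 genes of these lists passed in edgeR. An unadjusted p under 0.05 was then found in CT99021 against control for 3 of 17 cycle genes and 3 of the 28. It was also found for 3 of 76 mitochondrial and 16 of 81 cytosolic ribosomal protein genes, beside 1514 of all 15608 genes tested.

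Regulators of mitochondrial gene expression changed in both directions with CT99021. Against control, Pprc1 (a coactivator related to PGC-1) rose by 0.73 ± 0.14 and Esrra, a nuclear receptor, by 0.41 ± 0.11. Ppargc1a, which encodes PGC-1 alpha, fell by 0.96 ± 0.19, and Gabpa, the DNA-binding part of GABP, by 0.28 ± 0.07. The other 12 of the 16 regulators did not pass, so 25% were called, beside 15.8% of all genes tested. Gabpa and the ATP synthase gene Atp5j overlap in the genome, so their reads may be mixed. In GW3965+CT99021 against GW3965, Pprc1 rose by 0.61 ± 0.14 and Esrra by 0.37 ± 0.11, and Ppargc1a fell by 0.69 ± 0.18.

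Most respiratory chain genes varied together, and genes outside the set shared the pattern. With each replicate number centred, the 85 genes had a median Pearson r of 0.76 with the mean of the members over the 12 libraries, and 74 were above 0.5. That mean includes each gene itself, and r over all genes tested is not given for comparison. The highest r of a member was 0.966, and the genes named next lay above it. Among the genes outside the set with the most similar pattern were Pfkl, a subunit of the glycolytic enzyme phosphofructokinase (r = 0.98), the splicing protein Snrpd3 (0.98), the ubiquitin-like modifier Nedd8 (0.97) and the RNA-binding protein Hnrnpm (0.967). These libraries share depth and composition differences, so the values describe the pattern only.

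Short transcripts were common among the members. Their median length was 839 bases against 2963 over all genes tested, and 50 of 85 had at most 1000 bases, against 1024 of 15608. The median log2 fold change over all genes of at most 1000 bases was 0.09 in CT99021 against control and -0.07 in GW3965 against control, beside 0.06 and -0.12 for the members. In GW3965+CT99021 against GW3965 the median over these short genes was 0.07, below the members' median given above. With an offset that removes each library's trend on length, the members' median was 0.02 in CT99021 against control and -0.09 in GW3965 against control, and Ndufaf4, Sdhaf2 and Atp5sl were the 3 genes called in CT99021 against control.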

How the data were processed

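RNA was sequenced from 12 neurosphere libraries, 3 in each of 4 groups. The authors deposited 1 table of raw counts per gene, not normalised, with mm9 positions and transcript lengths. The submitters' processing notes name Bowtie and mm9. Not given in the sources used here are the counter, the annotation, the strand setting and the handling of multiply aligned reads. Respiratory chain genes have processed pseudogenes, and 16 of the 92 overlap a protein-coding gene, so such values are uncertain. Members, gene lists and the naming rule (fixed core subunits and isoforms, up to 10 genes each way past the test, otherwise the 3 lowest p) were chosen with earlier results of these data known.

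The fixed test was the quasi-likelihood test of edgeR 4.0.16 in R 4.3.3 on all 12 libraries, with TMM factors, the filterByExpr filter (15608 genes) and Benjamini-Hochberg adjustment over all of them. The CPM values use the same factors. Pairing by replicate number was checked on deviations from group means: 18 pairs of equal number correlated at 0.496 to 0.828, pairs of different number at -0.677 to 0.241. Deviations within a group cancel out, so positive values at equal numbers force negative values on average at different numbers. The range at different numbers is therefore not separate evidence for the pairing, which rests on the pairs of equal number. The pairing comes from the data, not the labels, so a fit with the number as a block is given beside it. The block lowered edgeR's biological coefficient of variation to 12.7%, against 33.4% without it. DESeq2 1.42.0, other factors, no filter, left-out libraries and a length offset were alternatives. Code was tested on simulated data. The prior count for log2 CPM was 2. Errors cover these libraries only, and counts carry no molecular identifiers.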

Additional observations from a re-analysis of the deposited data

How the results depend on the processing

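Without the replicate block, 0 members passed in any of the 6 comparisons in edgeR, also with RLE factors, with no filter and without any 1 library. DESeq2 without the block called 1 in CT99021 against control, in GW3965+CT99021 against control and in GW3965+CT99021 against GW3965. With the replicate block these 3 comparisons gave 5, 3 and 10. With the block, RLE factors gave 5, 3 and 7, no filter 3, 3 and 7, DESeq2 4, 3 and 9, the length correction 3, 4 and 9, and leaving out the 4 libraries numbered 3 gave 10, 8 and 18. A term for the 5 libraries without U14 counts gave 4, 3 and 2, and the 7 other libraries alone gave 16, 6 and 19. With the block, that term distinguishes GW3965+CT99021 replicate 2 alone from the libraries of its number. Leaving out 1 library with the block gave 1 to 6, 2 to 5 and 2 to 13 members (11 without control replicate 3 and 12 without CT99021 replicate 3 in the last), the lowest in CT99021 against control being that without control replicate 2. The cause of these differences in count was not tested, and the counts over all genes under the same settings are not given here. The other 3 comparisons gave 0 members under every setting run. The members' median in GW3965+CT99021 against CT99021 was -0.04 with the block, 0.02 with the length correction and 0.06 in the 7 libraries.

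For the 18 results past the test with the block, 246 of 342 values from other fits with the block passed and 3 of 288 from fits without it, and 0 reversed. For 33 results short of it, 16 of 627 values from other fits with the block passed (of Ndufaf3, Atp5s, Ndufaf2, Uqcrc1 and Uqcrfs1) and 0 of 528 without it. Of their 1155 values 4 reversed: in GW3965+CT99021 against CT99021, Atp5k was at -0.0057 with the term for the 5 libraries and at -0.0059 without GW3965+CT99021 replicate 2, both with the block, and Atp5d ran from -0.35 to 0.0058 over single libraries left out, the highest without GW3965+CT99021 replicate 3; in GW3965+CT99021 against GW3965, Atp5s ran from -0.51 to 0.015, the highest without GW3965 replicate 3. The cause of these was not tested. Levels moved by less than 1 SD with RLE factors. Differences of about 0.1 log2 units lay near the standard errors of single genes, so such differences were not detectable at this depth and number of libraries.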
